A study of Mus musculus with 6 samples.

Results

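Lpl and Alox5ap are a pair of genes through which macrophages handle lipid, and both were read here in mouse bone marrow macrophages that had been driven towards osteoclasts. They were taken by gene symbol from the table that the authors deposited, in which they are 2 of 109 genes. All 109 had been selected on the authors' fold change and adjusted p-value between control and mogrol-treated cells in these same libraries, so the difference between the groups in both genes is described here and is not tested. All 6 libraries came from bone marrow macrophages (BMMs) of C57BL/6 mice (C57BL/6J in the methods) kept for 5 days with 30 ng/ml RANKL, the cytokine that starts osteoclast formation. The 3 control libraries had RANKL alone, and the 3 mogrol libraries had RANKL plus 20 μM mogrol, a plant triterpenoid that forms the sugar-free core of the mogrosides of Siraitia grosvenorii. The methods also give M-CSF, the growth factor that keeps macrophages alive, in the cultures. Only this dose and this time were sequenced, and the labels do not say whether the libraries of a group came from separate mice or cultures, so an SD over them may be a technical spread. The comparison asks which transcripts respond to mogrol while RANKL is present.

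Lpl encodes lipoprotein lipase, a secreted enzyme that splits the triglycerides carried in lipoproteins and so hands fatty acids to nearby cells. Macrophages, adipocytes and muscle cells make it. Alox5ap encodes the 5-lipoxygenase activating protein, also called FLAP, a membrane protein that presents arachidonic acid to 5-lipoxygenase in the first step of leukotriene synthesis. It is found mainly in myeloid cells, and leukotrienes are lipid signals that draw in and activate white blood cells. Osteoclasts arise from the same myeloid precursors by fusion, and cathepsin K is one of the enzymes with which they dissolve bone.

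Lpl (ENSMUSG00000015568) lies on GRCm38 chromosome 8 from 68880491 to 68907448, on the plus strand. GENCODE M21 lists 5 transcripts for it, 1 of them protein coding, with 10 exons, a length of 4115 bases and a coding sequence of 1422 bases. No other annotated gene overlaps it. Alox5ap (ENSMUSG00000060063) lies on GRCm38 chromosome 5 from 149264767 to 149288153, on the plus strand. It has 4 listed transcripts, of which 3 are protein coding, and the longest of these has 5 exons, 1251 bases and a coding sequence of 483 bases. An antisense gene, Gm19719, runs on the opposite strand across the fourth exon of that transcript and into its last one. It shares 189 exonic bases with Alox5ap, counted over the exons of all its listed transcripts. An annotated rRNA gene, n-R5s180, lies in an intron of Alox5ap and shares 0 exonic bases. Whether the authors' counting used strand is not given in the sources used here, so reads from those 189 bases cannot be assigned to Alox5ap or Gm19719. Because Lpl is the gene without an overlap, its counts carry no such doubt.

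**Figure D1:**
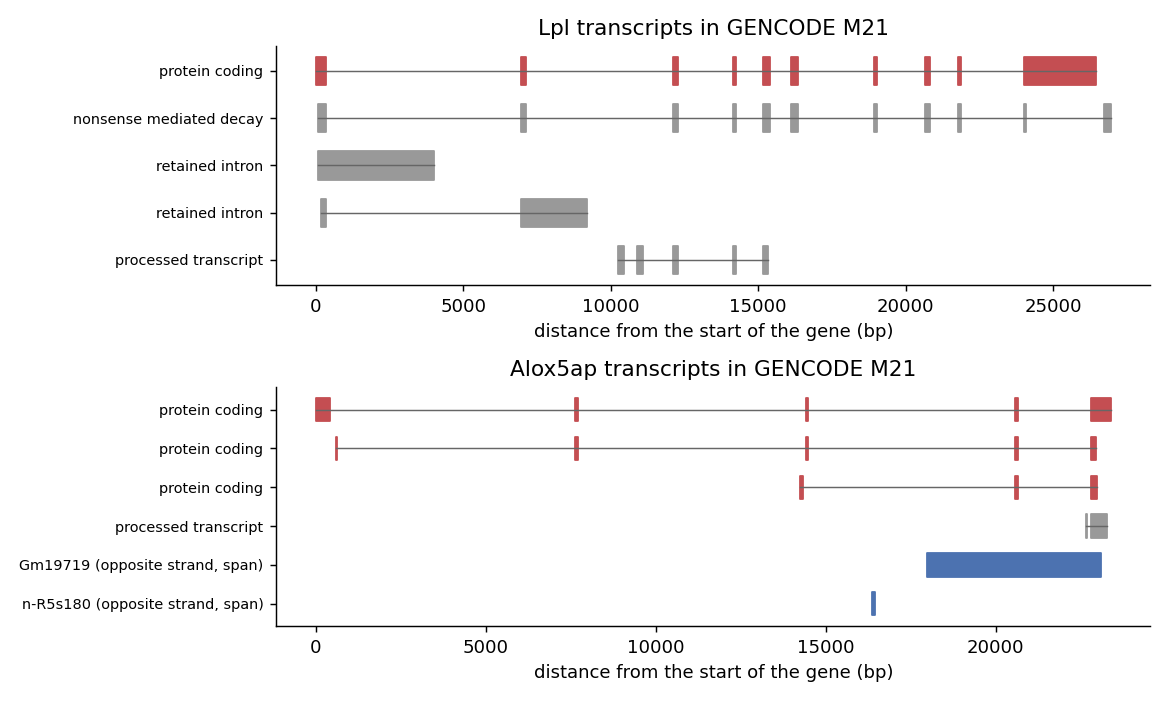
Transcripts of Lpl and Alox5ap in GENCODE M21, drawn as exons (boxes) against the distance from the start of the gene in bp, with protein-coding transcripts in red, other transcripts in grey and the span of opposite-strand genes in blue. The retained-intron transcripts of Lpl add much exon sequence outside its coding transcript, and the span of Gm19719 ends within the last exon of Alox5ap.

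The libraries held between 18097882 and 18652439 reads, recovered from the read, FPKM and length columns to within 72 reads. Levels below are RPM, which counts the reads of a gene per 1000000 reads of its library, or FPKM, in which they are also divided by gene length. For pairs of libraries within a group, the mean chi-square over the 109 genes ran from 5.23 to 40.5, above what counting alone would give. This mean need not hold for each gene: Alox5ap varied less between control libraries than counting alone would give. Each library was counted as 1 sample, although the labels do not show that the libraries were independent. The 109 genes took 2.04% to 2.27% of each control library and 1.21% to 1.25% of each mogrol library.

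Lpl was higher in all 3 mogrol libraries. Its reads were 7047, 8636 and 8882 in control replicates 1, 2 and 3, and 22847, 21724 and 21059 in mogrol replicates 1, 2 and 3. The lowest mogrol library stood 2.35 times above the highest control library in RPM, so the groups did not overlap. The mean of Lpl was 444 ± 56.2 RPM under RANKL alone and 1194 ± 44.6 RPM with mogrol added (SD, n = 3), a ratio of 2.69. The log2 fold change fitted with edgeR over the 109 genes was 1.43 (standard error 0.0802). In plain terms, Lpl supplied 1 read in 2050 to 2628 under RANKL alone and 1 in 810 to 872 when mogrol was present.

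Alox5ap was also higher in all 3 mogrol libraries, at a much lower count. It had 484, 474 and 486 reads in control replicates 1, 2 and 3, and 1192, 973 and 1162 in mogrol replicates 1, 2 and 3. Here the lowest mogrol library, replicate 2, was 2.01 times the highest control library, and the groups again did not overlap. The mean was 26.1 ± 0.639 RPM under RANKL alone and 60.5 ± 5.85 RPM with mogrol added (SD, n = 3), a ratio of 2.32. Its log2 fold change was 1.21 (standard error 0.101).

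Both genes passed the call that was set for the whole table in edgeR's quasi-likelihood test (Benjamini-Hochberg adjusted p below 0.05, and more than 2-fold in size). Among the 109 deposited genes 98.2% passed it and 41.3% passed it as higher in mogrol. The groups did not overlap in 100% of them. Since the table was filtered on this very difference, the calls of Lpl and Alox5ap add nothing to that filter. In bulk RNA, more cells of a type and more RNA per cell cannot be told apart.

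**Figure D2:**
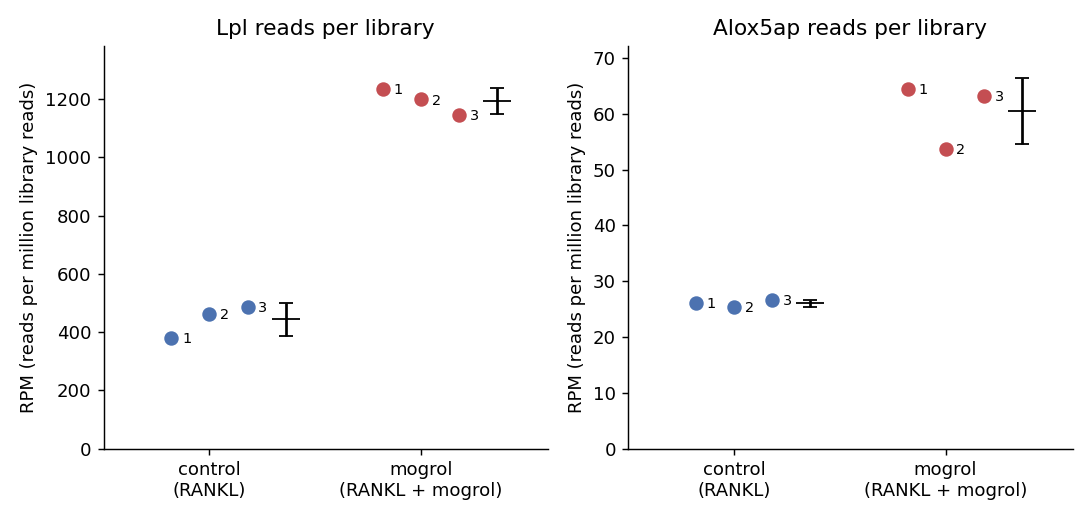
RPM of Lpl (left) and Alox5ap (right) in each of the 6 libraries, numbered by replicate, with the mean and SD of the 3 libraries of a group in black beside them. Lpl rises from 380 to 488 RPM in control libraries to between 1146 and 1235 RPM with mogrol, and Alox5ap from 25.4 to 26.7 RPM to between 53.8 and 64.4 RPM.

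Among the 45 deposited genes with a fold change above 0, Lpl had the most reads. Its mean over the 6 libraries was 15032 reads, ahead of Cybb, which encodes the catalytic subunit of the phagocyte NADPH oxidase and had 3141. Alox5ap stood in position 12 of the 45 by reads, with a mean of 795, against a median of 322. The sum of the RPM gained by the 45 genes was 2012. Lpl supplied 750 RPM of this, or 37.3%, Cybb 152 RPM and Alox5ap 34.4 RPM, or 1.71%. Lpl made up 28.0% of the reads of the 45 genes in control replicate 1, 36.2% in both other control libraries and 34.6% to 37.1% in the mogrol group.

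By size of the fold change neither gene was near the top of the raised genes. Lpl ranked 16 of the 45 and Alox5ap 34, where the 45 values ran from 1.10 to 2.91 on the log2 scale with a median of 1.31. In the plot of fold changes by rank Lpl, at 1.43, is above that median and Alox5ap, at 1.21, is in the lower part of the raised genes.

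**Figure D3:**
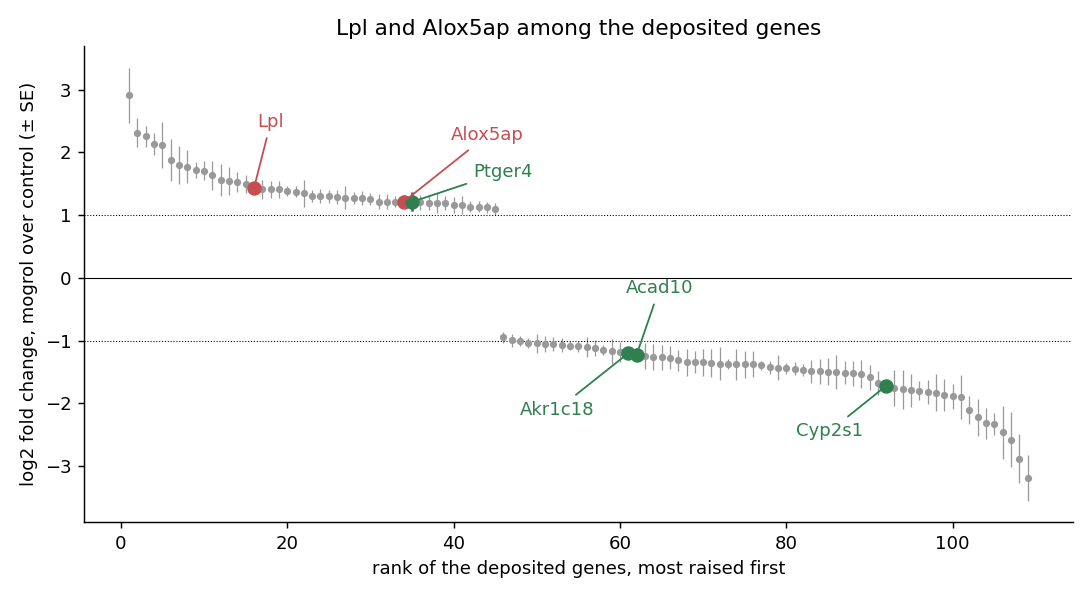
Log2 fold change of mogrol over control (± standard error, edgeR) for the 109 deposited genes against their rank, with Lpl and Alox5ap in red, other genes of the lipid and eicosanoid lists in green, and dotted lines at 1 and -1. Lpl stands at rank 16 and Alox5ap at rank 34, and the empty band around 0 is the authors' filter.

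The spread between libraries had a different shape in the 2 genes. Among control libraries the coefficient of variation (SD over mean) of Lpl was 12.7%, against 1.11% that counting alone would give at its depth. Control replicate 1 made most of this spread, at -0.21 from the control mean on the log2 scale. Among mogrol libraries it was 3.74%, against 0.676% from counting. Alox5ap showed the reverse order, with 2.45% for control, below its counting value of 4.56%, and 9.67% for mogrol, above its counting value of 3.0%. Over the 109 genes the median was 11.2% among control libraries and 9.88% among mogrol libraries. Alox5ap without mogrol was in position 106 of 109 when the most variable gene is placed first, while Lpl was in position 45. With mogrol Lpl moved to position 93 and Alox5ap to position 56. An SD over 3 libraries is imprecise, so these positions describe the libraries and are not traits of the genes.

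The library that was low for Lpl was not low for the raised genes in general. Control replicate 1 was the lowest control library for 6 of the 45, Lpl among them, and the median deviation of the 45 there was 0.14 above the control mean on the log2 scale. Mogrol replicate 2, the lowest mogrol library for Alox5ap, was the lowest for 26 of the 45, with a median deviation of -0.07. For Alox5ap the deviation there was -0.17, and for Lpl it was 0.01. Without control replicate 1 the log2 fold change of Lpl was 1.33, and without mogrol replicate 2 that of Alox5ap was 1.29.

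Set against each other, Lpl gave more reads than Alox5ap in every library. The ratio of reads was 14.6, 18.2 and 18.3 in control replicates 1, 2 and 3, and 19.2, 22.3 and 18.1 in mogrol replicates 1, 2 and 3. These ratios need no scaling by library totals, and they overlapped between the groups, with a control mean of 17.0 ± 2.13 and a mogrol mean of 19.9 ± 2.19 (SD, n = 3). On the log2 scale the fitted fold change of Lpl exceeded that of Alox5ap by 0.21, while the SD of the log2 ratio was 0.19 among control libraries and 0.16 among mogrol libraries. This gap fell to 0.11 without control replicate 1 and to 0.13 without mogrol replicate 2. A difference in response between the genes was therefore not resolved beyond the spread between libraries.

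Levels per length put Lpl above Alox5ap as well, by an amount that depended on the length used. The deposited FPKM of Lpl were 36.3, 44.2 and 46.5 in control replicates 1, 2 and 3, and 118, 115 and 109 in mogrol replicates 1, 2 and 3. Those of Alox5ap were 18.4, 17.9 and 18.8 for control replicates, and 45.4, 37.9 and 44.5 for mogrol replicates. By mean FPKM over all libraries Lpl was the highest of the 45 raised genes and Alox5ap was in position 3. The authors' length is the union of all annotated exons, 10478 bases for Lpl and 1420 for Alox5ap, which is 2.55 and 1.14 times the longest coding transcript. With the deposited length the FPKM of Lpl were 2.31 ± 0.289 times those of Alox5ap under RANKL alone and 2.69 ± 0.297 times with mogrol (SD, n = 3). With the coding transcript length, an alternative chosen after the data were seen, the ratio of levels was 5.17 ± 0.647 and 6.04 ± 0.665. Which Lpl transcripts were present cannot be read from counts per gene, so the level of Lpl per length is uncertain over that range, whereas the fold changes do not depend on length.

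Of the genes listed around Lpl for lipoprotein and fatty acid handling, only Acad10 was in the deposited table, 1 of 77 listed besides Lpl. Acad10 belongs to the acyl-CoA dehydrogenases, the mitochondrial enzymes of fatty acid oxidation. It had 1047, 1247 and 1245 reads without mogrol and 524, 480 and 499 with it, and was thus lower in every mogrol library. The mean fell from 63.9 ± 6.44 to 27.3 ± 0.912 RPM (SD, n = 3). On the log2 scale this was a change of -1.23 (standard error 0.0997). The other 76 genes of that list, among them the anchor protein and the inhibitors of lipoprotein lipase, were not analysed here, and their absence from a table of selected genes says nothing of their level.

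Of the eicosanoid genes, 3 of 60 listed besides Alox5ap were in the table, namely Ptger4, Cyp2s1 and Akr1c18. They did not move one way: in edgeR's test Alox5ap and Ptger4 were called higher, and Cyp2s1 and Akr1c18 lower. Of all 109 deposited genes, 45 were called higher and 62 lower in that test. A split among so few genes picked by the authors' filter therefore says little about eicosanoid genes as a class. Ptger4 encodes EP4, a receptor for prostaglandin E2, and had 130, 126 and 131 reads without mogrol and 290, 298 and 302 with it. The level rose from 6.99 ± 0.221 to 16.2 ± 0.449 RPM (SD, n = 3), and its log2 fold change was 1.21 (standard error 0.152), as for Alox5ap. Cyp2s1 encodes a cytochrome P450 that can act on eicosanoids and retinoids. Its reads were 2073, 2235 and 2130 without mogrol and 662, 631 and 646 with it, and its log2 fold change was -1.72 (standard error 0.0927). Akr1c18 encodes an aldo-keto reductase known mainly as a progesterone-degrading enzyme, with prostaglandin F synthase activity. It fell from 178 ± 10.2 to 77.5 ± 3.03 RPM (SD, n = 3), and its log2 fold change was -1.20 (standard error 0.0864). Acad10 and Akr1c18 lost their call when scaling was computed over the 109 genes alone, with TMM or with DESeq2, and Cyp2s1 did with DESeq2, all 3 still below 0. Those scalings raise every gene, by a median of 0.42 with TMM and 0.98 with DESeq2 on the log2 scale. The call of Ptger4 was lost with limma on log2(FPKM + 1), at 0.74. Ptger4 and Cyp2s1 overlap genes on the opposite strand, as Alox5ap does. The enzymes that act beside FLAP, such as 5-lipoxygenase and leukotriene C4 synthase, were not analysed here.

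**Figure D4:**
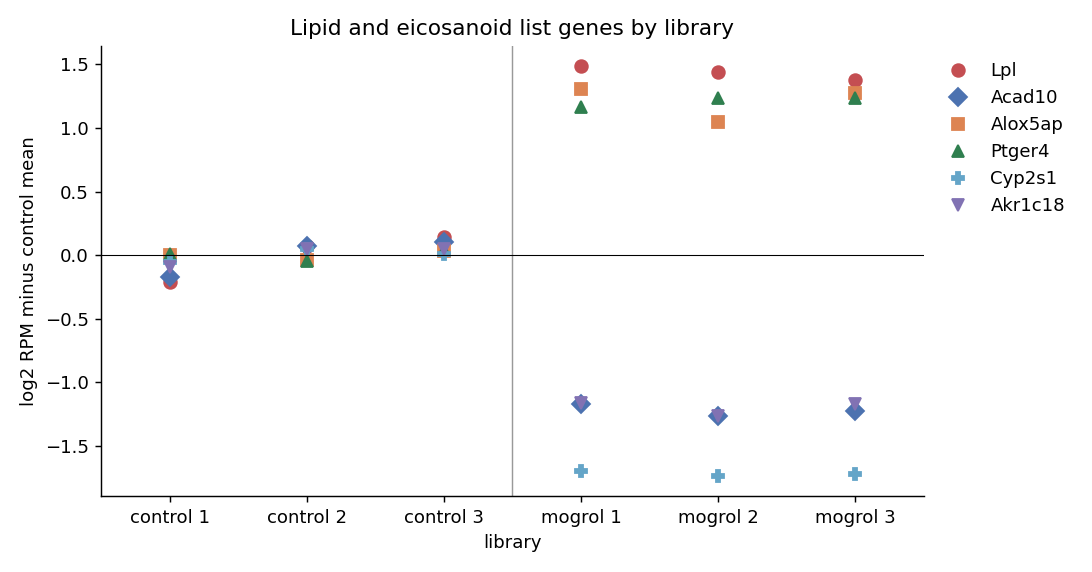
Log2 RPM minus the control mean in each of the 6 libraries for the 6 deposited genes of the lipid and eicosanoid lists, each gene with its own symbol. Lpl, Alox5ap and Ptger4 lie above 1 and Acad10, Akr1c18 and Cyp2s1 below -1 in all 3 mogrol libraries.

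The authors' own annotation column was also searched for lipid terms. It assigns 8 biological process terms to Lpl, none of which any other deposited gene carries, and 9 to Alox5ap. Of those 9 terms, 7 belong to Alox5ap alone, among them the lipoxygenase pathway and leukotriene biosynthesis. The remaining terms, oxidation-reduction process and cellular response to calcium ion, are shared with 7 genes in all, including Acad10, Akr1c18 and Cyp2s1. In all, 5 deposited genes carry a term that names a lipid or lipid mediator, and 3 of them were higher and 2 lower with mogrol.

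The genes whose profile over the 6 libraries was most like that of each member were found by the root-mean-square difference of log2 RPM, each profile centred on its own mean. Nearest to Lpl was Mmp12, macrophage elastase, at a difference of 0.10. Its RPM were 29.3, 37.0 and 34.8 in control replicates and 92.4, 77.5 and 80.5 in mogrol replicates, with control replicate 1 again the lowest of its group. Mturn (0.151), Ptger4 (0.165), Lair1 (0.180) and Alox5ap itself (0.181) came next. Alox5ap had closer neighbours, namely Lair1 (0.0777), an inhibitory collagen receptor, Lilr4b (0.0779), Lilrb4a (0.0857), Slc11a1 (0.0946), a metal transporter of phagosomes, and Ptger4 (0.0989). Lilr4b and Lilrb4a are neighbouring paralogs between which reads could have been split. Alox5ap was 5 in order from Lpl, but Lpl was only 27 in order from Alox5ap. The authors' filter had picked all of these genes on the same contrast, so likeness in the step between groups was fixed by that choice.

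The macrophage markers in the table rose with both genes. Of 16 macrophage markers listed, 4 were in the table, namely Cybb, Cx3cr1, Fcgr3 and Clec7a, and all 4 were called higher with mogrol. They were in the table because the authors' filter had picked them on this contrast, so their direction is no separate evidence. Of all 109 deposited genes, 45 were called higher. Their log2 fold changes lay between 1.22 and 1.53, and that of Lpl, 1.43, was inside this range, while that of Alox5ap, 1.21, was just under it. The summed level of the 4 markers ran from 171 to 234 RPM under RANKL alone and from 484 to 532 RPM with mogrol. Cx3cr1 overlaps several other annotated genes. The macrophage markers outside the table were not analysed here. None of these 4 was at 0 in any library, but genes that passed the filter had to be counted. The labelled cell type was therefore not checked.

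The ratio of each gene to that marker sum is given as a description. The filter had picked the 4 markers, like Lpl and Alox5ap, as higher with mogrol, so ratios alike in both groups were largely fixed by that choice. Lpl had 1.63, 2.71 and 2.63 RPM per RPM of the marker sum in control replicates 1, 2 and 3, and 2.42, 2.48 and 2.16 in mogrol replicates 1, 2 and 3. The group means were 2.32 ± 0.603 and 2.35 ± 0.171 (SD, n = 3), so the mogrol libraries lay within the control range. For Alox5ap the ratios were 0.112, 0.149 and 0.144 for control and 0.126, 0.111 and 0.119 for mogrol replicates, with means of 0.135 ± 0.0201 and 0.119 ± 0.00753 (SD, n = 3). Control replicate 1 was the lowest control library in both ratios. It had the highest marker sum of its group, and for Lpl also the lowest level, 380 RPM. The part of macrophage number in the rise of Lpl and Alox5ap was not tested.

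**Figure D5:**
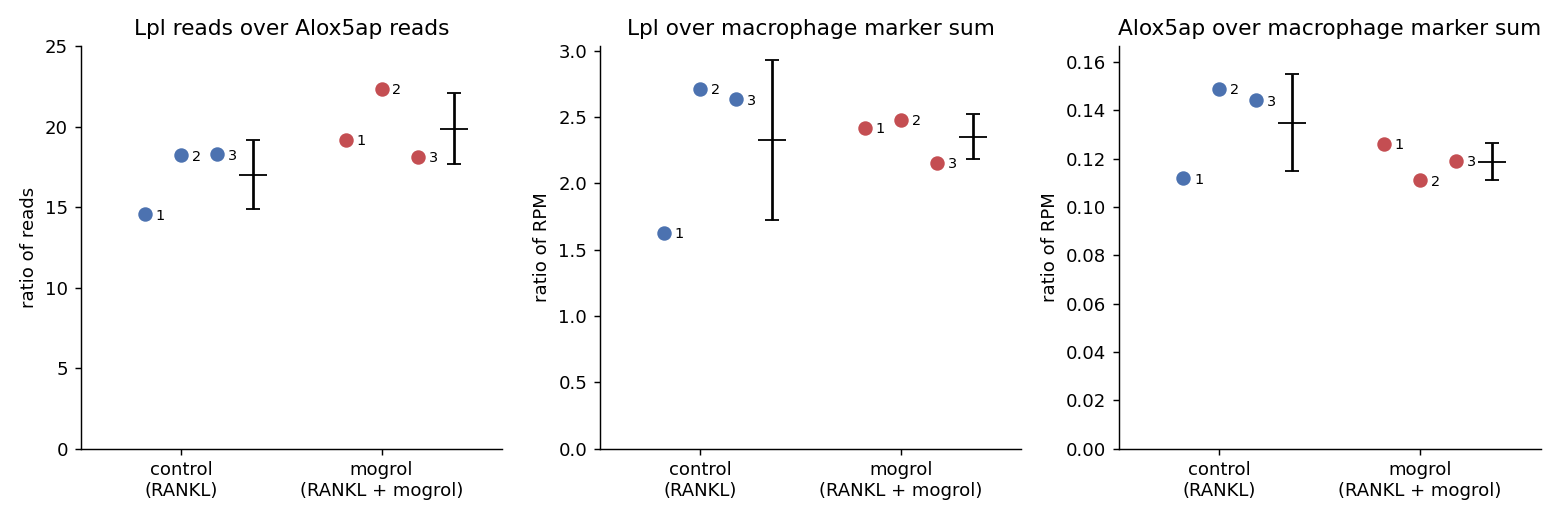
Ratio of Lpl reads to Alox5ap reads (left), and ratio of Lpl RPM (middle) and Alox5ap RPM (right) to the summed RPM of Cybb, Cx3cr1, Fcgr3 and Clec7a, in each library numbered by replicate, with the mean and SD of 3 libraries in black. In all 3 panels the control and mogrol libraries overlap, and every gene in these ratios had been picked by the authors' filter as higher with mogrol, which largely fixes that overlap.

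The osteoclast and stromal markers in the table went the other way. The authors' filter had picked them on this contrast, so their direction is no separate evidence. Of all 109 deposited genes, 62 were called lower. Of 14 osteoclast markers, Ctsk (cathepsin K) and Ckb (brain-type creatine kinase) were in the table and both were called lower, with summed levels of 12507 to 13966 RPM under RANKL alone and 6117 to 6460 RPM when mogrol was added. Both lost the call when scaling was computed over the 109 genes alone, with TMM or with DESeq2. With DESeq2, Ctsk went from -1.08 to -0.10 and Ckb from -1.03 to -0.05. Those scalings raise every gene, by a median of 0.42 with TMM and 0.98 with DESeq2 on the log2 scale. The lost calls of Ctsk and Ckb reflect that shift. Of 20 stromal markers, 5 were in the table (Col3a1, Col6a2, Postn, Igfbp5 and Thy1), 4 were called lower, and Igfbp5 had a log2 fold change of -0.99, short of the limit. Col3a1, Col6a2 and Thy1 lost the call under both of those scalings and Postn with DESeq2, all still below 0. Col6a2 and Thy1 also lost it with limma on log2(FPKM + 1). Col6a2, at -1.01, lost it as well on leaving out 1 library, either control replicate 3 or one of mogrol replicates 1 and 2, and Igfbp5 was called in 4 of the 14 alternatives. The stromal sum was 1196 to 1263 RPM under RANKL alone and 484 to 529 RPM with mogrol. Lpl is also made by adipocytes, and Alox5ap by neutrophils and mast cells. Of 10 adipocyte markers 0 were in the table, and of 15 neutrophil and mast cell markers 0. Those genes were not analysed here, and their absence from a table of selected genes says nothing of their level. The part of stromal cells, adipocytes, neutrophils or mast cells in the levels of Lpl and Alox5ap was not tested.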

How the data were processed

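RNA was sequenced in 6 libraries. Per the labels, the submitters' processing notes name cutadapt 1.9.1, HISAT2 2.0.1, HTSeq 0.6.1 and GRCm38, and the strand setting is not given in the sources used here. The authors deposited 1 table of the 109 genes they had called. It holds the authors' raw read counts and their FPKM, which divide reads by the exon union and by library size. The deposited mean normalized count is the authors' signal, scaled by DESeq2. The authors' own log2 fold changes with standard errors, test score and p-values were not used.

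Library totals were recovered from FPKM, counts and lengths, and all 654 FPKM values could be recomputed from them within rounding. Counts were fitted with edgeR 4.0.16 (R 4.3.3, quasi-likelihood, library totals, no filter or covariate), with the standard error as the fold change over the square root of F. The fit was tested on simulated counts. Alternatives used DESeq2 1.42.0, limma 3.58.1 on FPKM with 0.1 or 1 added before the log2, other scalings, a filter at a mean of 50 reads, a replicate block and each library left out. Alox5ap had at least 474 reads per library and Lpl at least 7047, and the counting values given cover counting error only.

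Named genes are Lpl, Alox5ap, every deposited gene of a lipid and an eicosanoid list, the 5 genes nearest in profile to each member, and the deposited members of 5 marker lists (all if 5 or fewer). Members and lists were chosen with earlier results of these data known. GENCODE M21 (GRCm38) held all 109 identifiers. Start and end matched for 107 of them, and the deposited length equalled the exon union for 106.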

Additional observations from a re-analysis of the deposited data

How the results depend on the processing

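Lpl and Alox5ap kept their direction and their call under every alternative run. Both had been selected on this contrast in these same libraries, so keeping the call is no separate evidence. Without each library in turn the log2 fold change of Lpl lay between 1.33 and 1.5, that of Alox5ap between 1.17 and 1.29, and the gap between them between 0.11 and 0.28. Between 60 and 63 genes were called lower, against 62 with all libraries, and 45 higher throughout. The deposited genes fell more often than they rose, so scalings computed over them alone shift every gene: by 0.42 (log2) with TMM and 0.98 with DESeq2 size factors. There Lpl had 1.86 and 2.41 and Alox5ap 1.64 and 2.19, or 1.44, 1.43, 1.22 and 1.21 after taking off the shift. The calls were 45 higher and 30 lower (60% higher) with TMM, and 45 higher and 8 lower (84.9% higher) with DESeq2, against 45 and 62 (42.1% higher). Limma on log2(FPKM + 1) called 25 higher and 27 lower, where the added 1 shrinks low genes, and gave 1.41 for Lpl and 1.17 for Alox5ap. With the size factors implied by the deposited mean counts the values were 1.36 and 1.14. DESeq2 on library totals, added after seeing the data, gave 1.43 and 1.21. The ratio of Lpl to Alox5ap per length moved from 2.31 to 5.17 in control cells and from 2.69 to 6.04 in mogrol-treated cells with the coding transcript length.

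In the fit with a replicate block Lpl had 1.43 and Alox5ap 1.21, 45 genes were called higher and 62 lower, and no call changed. Deviations of same-numbered libraries correlated over the 109 genes, not over independent samples, at 0.0872, 0.213 and 0.0717. The labels name no shared batch, so the pairing was not used. Depth limits Ptger4 and Alox5ap more than Lpl, and no outlier test was run with 3 libraries a group.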
